A study of Mus musculus with 4 samples.

Results

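The Rag GTPases, the folliculin tumour suppressor and the MiT/TFE transcription factors form a nutrient-sensing circuit on the lysosome. A set of 10 genes of that circuit was followed here, out of 55487 genes in the deposited table: the Rag genes Rraga, Rragb, Rragc and Rragd, the Rag anchor gene Lamtor1, the folliculin gene Flcn, the MiT/TFE genes Tfeb, Tfe3 and Mitf, and the MiT/TFE target gene Gpnmb. They were taken by gene symbol through the Ensembl identifier of each row, and all 10 were found. The set was put together knowing that Rragd was far lower in the libraries labelled knockout, so the values between the groups are given below as a description, without a test. Of the 10, 9 passed the filter on low counts and Rragb did not.

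RNA was sequenced from bulk liver tumours, called hepatocellular carcinoma in the labels, of 4 mice of the Alb-cre H11-myc model. In these mice a Myc transgene at the H11 locus drives spontaneous liver cancer, and the albumin promoter directs Cre recombinase to cells of the hepatocyte lineage. The labels give 2 mice as liver-conditional Tfrc knockouts and 2 as wild type, each mouse 1 library. The model name, with Alb-cre in it, covers all 4 mice. Whether the wild type mice carried unrecombined Tfrc alleles, and how old the mice were, is not stated in the labels. Macrophages, endothelial cells and stroma lie outside the reach of an albumin-driven Cre, and bulk RNA pools them with the tumour cells. The series asked how the transferrin receptor gene Tfrc affects the tumour and its surroundings.

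Rag GTPases work as heterodimers of RagA or RagB with RagC or RagD. The Ragulator complex, of which LAMTOR1 is the lipid-anchored subunit, holds the dimers on the lysosome, where amino acids set their nucleotide state and so the recruitment of the kinase mTORC1. Folliculin, with its partners FNIP1 and FNIP2, makes RagC and RagD hydrolyse GTP, and RagC or RagD in that state presents TFEB and TFE3 to mTORC1, which keeps them in the cytoplasm. When that hold is lost, the factors enter the nucleus and bind CLEAR elements, E-box-like sites in lysosomal and autophagy genes. RRAGD, FLCN and GPNMB are themselves known targets of MiT/TFE factors in other systems.

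Libraries held between 15918349 and 17052943 counts, and levels are given as CPM after TMM scaling, or per length as the authors' FPKM where that is named. Tfrc had 5407 and 3244 counts in the knockout-labelled libraries and 8441 and 3603 in wild type, so the groups overlapped (log2 fold change -0.37, SE 0.45, edgeR quasi-likelihood adjusted p = 0.833). Bulk counts of Tfrc therefore gave no check of the labels, and "knockout-labelled" is used for that reason. Wild type replicate 2 was distant from the others on principal component 1 (48.2% of variance), at 90.3 against -35.1 to -24.8, so the list medians that moved without it are given with that value. Mitochondrial genes took 9.8% and 16.6% of counts in the knockout-labelled libraries and 8.69% and 4.13% in wild type, and their part in the results was not tested. Hepatocyte markers were abundant as a sum in every library. The 7 markers summed to 30260 and 28580 CPM in the knockout-labelled libraries and 10350 and 40750 CPM in wild type. Alb was the largest part of each sum. Cyp2e1, another of the 7, varied widely, at 34.2 and 653 CPM in the knockout-labelled libraries and 2.51 and 355 CPM in wild type. With 2 libraries a group the spread is poorly known, and fewer cells of a type cannot be told apart from less RNA per cell.

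Rragd, the RagD gene, was low in both knockout-labelled tumours, while Rragc, its paralog, stayed at a similar level in all 4. Rragd (ENSMUSG00000028278, chromosome 4, 32983037 to 33022180, mm10) had 60 and 90 counts in knockout-labelled replicates 1 and 2, against 955 and 434 counts in wild type replicates 1 and 2. In CPM this was 3.70 and 5.68 in the knockout-labelled libraries and 52.0 and 28.2 in wild type. The groups did not overlap, and the lower wild type library was still 4.97-fold above the higher knockout-labelled one. The log2 fold change was -3.10 (SE 0.46), which placed Rragd 52nd from the lowest of 16310 tested genes. Leaving out 1 library at a time gave between -3.47 and -2.62, the ends being set by the omission of wild type replicate 2 (-3.47) and of wild type replicate 1 (-2.62). The wild type mice differed from each other by 1.84-fold and the knockout-labelled mice by 1.53-fold.

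Rragc (ENSMUSG00000028646, chromosome 4, 123917446 to 123936997) had 71.2 and 57.0 CPM in the knockout-labelled libraries and 55.2 and 65.4 CPM in wild type. The groups overlapped, with a log2 fold change of 0.09 (SE 0.30) that ran from -0.11 to 0.24 as single libraries were left out. Per length, Rragc had 12.8 and 9.67 FPKM in the knockout-labelled libraries and 10.9 and 10.4 FPKM in wild type. Rragd had 0.620 and 0.901 FPKM in the knockout-labelled libraries and 9.56 and 4.18 FPKM in wild type. Rragc was therefore 20.6 and 10.7 times as high as Rragd in the knockout-labelled libraries and 1.14 and 2.48 times as high in wild type. The sum of the pair was 13.4 and 10.6 FPKM in the knockout-labelled libraries and 20.4 and 14.6 FPKM in wild type. As Rragc overlapped between the groups, the sum mostly restates the difference in Rragd, which was known when the set was chosen. Of Rragc's exonic bases, 7.9% also belong to the opposite-strand gene 4930535I16Rik, so reads of the pair may be mixed if strand was not used in counting.

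**Figure D1:**
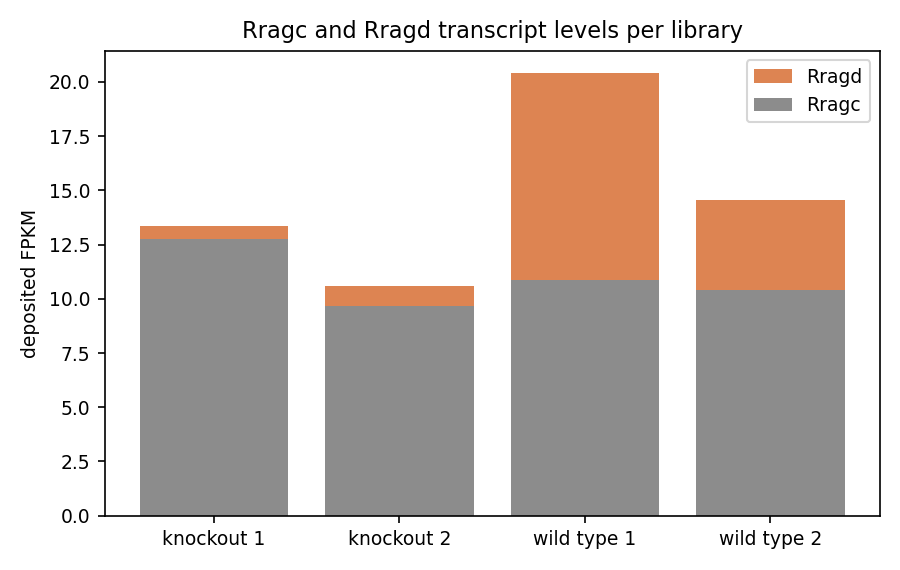
Deposited FPKM of Rragc (grey) and Rragd (orange), stacked for each of the 4 libraries (1 bar per mouse, no error bars). Rragc lies between 9.67 and 12.8 FPKM throughout, while Rragd is 0.620 and 0.901 FPKM in the knockout-labelled bars and 9.56 and 4.18 FPKM in the wild type bars.

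Rraga carried nearly all of the transcript of the other Rag pair. The gene (ENSMUSG00000070934, chromosome 4, 86575668 to 86577285) had 56.8 and 51.1 CPM in the knockout-labelled libraries and 50.5 and 31.8 CPM in wild type. Wild type replicate 2 was the low library, and the other 3 lay close together. The log2 fold change of 0.39 (SE 0.33) was 0.10 without wild type replicate 2, and the groups overlapped when counts were scaled by library totals. Rragb (ENSMUSG00000041658, chromosome X, 153139981 to 153171943), which in mammals is expressed most in neurons, had 10 and 9 counts in the knockout-labelled libraries and 1 and 0 counts in wild type. It was barely detected in any tumour. The ratio of its 19 knockout-labelled counts to its 1 wild type count, scaled to library size, was 20, with an exact 95% interval of 3.18 to 831 that covers counting error only. The interval is wide and covers no difference between mice. Rraga stood 165 and 162 times above Rragb in FPKM in the knockout-labelled libraries and 1663 times in wild type replicate 1, where Rragb rested on 1 count.

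The promoter windows of the paralogs Rragd and Rragc differed in E-box letters. RefSeq windows of 300 bases (250 before to 50 after the annotated start, GRCm38.p6) were found for all 10 genes, 15 windows in all. They were searched on both strands for the E-box core CACGTG, its extension TCACGTG, the related TCATGTG and the full palindromic CLEAR motif. TCACGTG and the palindrome contain the core. Of the 15 member windows, 3 (of 3 genes) held CACGTG, against 7.15% of 32851 windows of all genes, and each of those matches was also TCACGTG, which 3.77% of windows hold. Rragb had 3 matches, with the first base of the core 127, 36 and 3 bases before the start. Rragc had 1 at 112 bases and Lamtor1 1 at 68 bases before the start. Lamtor1 also had TCATGTG, held by 3.77% of windows, at 98 bases before the start. No member window held the palindrome, which 0.33% of windows hold. The 4 windows below are those of Rragd, which has none of these letters, of its paralog Rragc and of the other members that matched. Rragd shares this lack with others, as 7 of the 10 members held no CACGTG, Flcn and Gpnmb among them. Sites outside the windows were not searched. Capitals mark the matched motifs, 5′ to 3′ on the gene's strand, and a match is a description of letters and not evidence of binding. All 4 genes lie on the plus strand, and the windows are chr4:32982748-32983047 for Rragd, chr4:123917183-123917482 for Rragc, chrX:153139708-153140007 for Rragb and chr7:101905587-101905886 for Lamtor1.
Rragd: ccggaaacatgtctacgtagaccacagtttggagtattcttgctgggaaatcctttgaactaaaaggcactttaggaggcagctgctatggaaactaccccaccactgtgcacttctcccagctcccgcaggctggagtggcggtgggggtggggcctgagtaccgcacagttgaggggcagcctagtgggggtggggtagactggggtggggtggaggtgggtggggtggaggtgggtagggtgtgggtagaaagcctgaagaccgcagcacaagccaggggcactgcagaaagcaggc
Rragc: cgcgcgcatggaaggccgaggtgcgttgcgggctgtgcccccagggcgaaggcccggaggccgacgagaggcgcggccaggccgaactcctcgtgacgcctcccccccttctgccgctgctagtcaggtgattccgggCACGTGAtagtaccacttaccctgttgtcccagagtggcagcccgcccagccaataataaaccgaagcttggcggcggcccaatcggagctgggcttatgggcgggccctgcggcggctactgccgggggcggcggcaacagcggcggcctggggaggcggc
Rragb: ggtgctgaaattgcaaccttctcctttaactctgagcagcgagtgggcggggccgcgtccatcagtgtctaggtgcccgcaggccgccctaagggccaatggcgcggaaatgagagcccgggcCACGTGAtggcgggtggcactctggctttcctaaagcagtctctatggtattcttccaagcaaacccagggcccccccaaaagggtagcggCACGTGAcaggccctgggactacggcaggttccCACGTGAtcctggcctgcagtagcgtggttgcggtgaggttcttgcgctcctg
Lamtor1: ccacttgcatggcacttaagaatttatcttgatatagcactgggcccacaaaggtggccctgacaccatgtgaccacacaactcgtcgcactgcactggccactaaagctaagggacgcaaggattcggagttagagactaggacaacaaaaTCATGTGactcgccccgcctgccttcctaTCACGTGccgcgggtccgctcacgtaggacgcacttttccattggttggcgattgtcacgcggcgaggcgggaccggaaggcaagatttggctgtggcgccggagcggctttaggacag

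Lamtor1, the Ragulator anchor, was 1.58-fold lower between the group means, close to the 1.42-fold between the wild type mice. The gene (ENSMUSG00000030842, chromosome 7, 101905904 to 101926675) had 50.9 and 38.2 CPM in the knockout-labelled libraries and 58.2 and 82.8 CPM in wild type. The groups did not overlap, but the nearest libraries differed by only 1.14-fold. The log2 fold change of -0.66 (SE 0.33) ran from -0.93 to -0.39, the weakest when wild type replicate 2 was left out and the strongest when wild type replicate 1 was. Counts of Lamtor1 are uncertain, because 18.7% of its exonic bases also belong to the opposite-strand gene Lrrc51. Its transcript also matches those of Gm5510 (98.4% identity over 486 bases) and Gm13077 (96.5% over 484 bases). Lrrc51 itself had 41 and 49 counts in the knockout-labelled libraries and 32 and 43 counts in wild type, well under Lamtor1's 605 to 1274 counts.

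The other Ragulator subunits and the lysosomal arginine sensor SLC38A9 had fold changes under that of Rragd in size, with a median of -0.30 (log2) that was -0.075 without wild type replicate 2. Of these 5 genes, 0 passed edgeR's adjusted threshold of 0.05 in either direction, 0 had an unadjusted p under 0.05 and DESeq2 called 0. The threshold was also passed by 0% of all 16310 tested genes, so no list could stand out by it. By DESeq2, 0.399% of tested genes were called higher and 0.521% lower. Lamtor2, a structural Ragulator subunit, had 38.0 and 45.5 CPM in the knockout-labelled libraries and 62.6 and 58.7 CPM in wild type (log2 fold change -0.54, SE 0.29). Lamtor5 had a log2 fold change of -0.40 (SE 0.28), Lamtor4 one of -0.30 (SE 0.39), Slc38a9 0.36 (SE 0.43) and Lamtor3 0.27 (SE 0.33).

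Flcn was about 2-fold higher in the knockout-labelled libraries. The gene (ENSMUSG00000032633, chromosome 11, 59791408 to 59810016) had 668 and 832 counts in the knockout-labelled libraries and 382 and 402 counts in wild type. In CPM this was 41.2 and 52.5 in the knockout-labelled libraries and 20.8 and 26.1 in wild type, so the groups did not overlap and the nearest libraries differed by 1.58-fold. The replicates of each group lay within 1.27-fold of each other. The log2 fold change was 1.00 (SE 0.32), and between 0.80 and 1.17 as single libraries were left out.

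Folliculin's binding partners had positive fold changes of smaller size. Fnip1 had 32.6 and 40.5 CPM in the knockout-labelled libraries and 27.0 and 14.0 CPM in wild type, a log2 fold change of 0.83 (SE 0.40, edgeR adjusted p = 0.631). Fnip2 had 30.9 and 33.2 CPM in the knockout-labelled libraries and 28.2 and 16.4 CPM in wild type (log2 fold change 0.52, SE 0.37). In both genes wild type replicate 2 was the lowest library and neither passed the test. Gsk3b, a kinase that phosphorylates TFEB, had 53.0 and 39.9 CPM in the knockout-labelled libraries and 37.7 and 16.2 CPM in wild type. Ppp3r1, the regulatory subunit of the TFEB phosphatase calcineurin, and Pip4p1, a lysosomal phosphoinositide phosphatase gene, overlapped between the groups. Log2 fold changes were positive for 7 and negative for 3 of the 10 genes for folliculin partners and MiT/TFE regulators (median 0.20). By edgeR 0 passed, 0 had an unadjusted p under 0.05, and DESeq2 called 0.

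Tfeb, Tfe3 and Mitf differed between the group means by less than between the wild type mice. Tfeb (ENSMUSG00000023990, chromosome 17, 47737030 to 47792419) had 12.5 and 11.9 CPM in the knockout-labelled libraries and 13.1 and 17.5 CPM in wild type. The groups did not overlap, but the nearest libraries were only 1.05-fold apart. Its log2 fold change was -0.33 (SE 0.36), and -0.10 without wild type replicate 2. Tfe3 (ENSMUSG00000000134, chromosome X, 7762560 to 7775202) had 42.8 and 44.3 CPM in the knockout-labelled libraries and 48.4 and 32.8 CPM in wild type, with the knockout-labelled values inside the wild type range. Its log2 fold change was 0.10 (SE 0.32), and -0.15 without wild type replicate 2. Mitf (ENSMUSG00000035158, chromosome 6, 97807052 to 98021349), the family member of melanocytes and osteoclasts, had 47 and 72 counts in the knockout-labelled libraries and 74 and 37 in wild type. These counts overlapped fully (log2 fold change 0.21, SE 0.56), and the sign turned without knockout replicate 2 (-0.15) or without wild type replicate 2 (-0.12).

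Per length Tfe3 was the leading factor in 3 of the 4 libraries. Tfe3 had 2.11 and 2.07 FPKM in the knockout-labelled libraries and 2.62 and 1.43 FPKM in wild type. Tfeb had 1.38 and 1.25 FPKM in the knockout-labelled libraries and 1.59 and 1.72 FPKM in wild type. Wild type replicate 2 was the library in which Tfeb stood above Tfe3, and Mitf stayed between 0.214 and 0.444 FPKM everywhere. The fourth family gene, Tfec, is known from macrophages and had 2.59 and 2.84 CPM in the knockout-labelled libraries and 4.90 and 5.52 CPM in wild type (log2 fold change -0.94, SE 0.48, edgeR adjusted p = 0.634).

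Gpnmb, a lysosomal and surface glycoprotein gene of macrophages, osteoclasts and melanocytes, was high in a single tumour. The gene (ENSMUSG00000029816, chromosome 6, 49036546 to 49070929) had 793 and 271 counts in knockout-labelled replicates 1 and 2 and 189 and 289 counts in wild type replicates 1 and 2. In CPM this was 48.9 and 17.1 in the knockout-labelled libraries and 10.3 and 18.8 in wild type. Knockout-labelled replicate 2 lay below wild type replicate 2, and the knockout-labelled mice differed by 2.86-fold, the widest gap between replicates among the 9 tested members. The log2 fold change of 1.18 (SE 0.56) was 0.20 without knockout replicate 1 and 1.75 without knockout replicate 2.

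The marker sums of macrophages and of melanocytes were highest in wild type replicate 2, not in knockout-labelled replicate 1. Within the knockout-labelled pair, both sums were higher in replicate 1, where Gpnmb was high. The cell source of Gpnmb was not tested. The 10 macrophage markers summed to 819 and 481 CPM in the knockout-labelled libraries and 1331 and 1549 CPM in wild type, and 8 of 10 were lower in both knockout-labelled libraries than in both wild type ones, against 20.1% of all tested genes. Of the 5 melanocyte markers Tyr and Tyrp1 were at 0 counts in every library, and the sum was 2.53 and 1.96 CPM in the knockout-labelled libraries and 0.163 and 5.91 CPM in wild type. Dct was the largest part of each melanocyte sum, at 1.97 and 1.01 CPM in the knockout-labelled libraries and 0.109 and 5.39 CPM in wild type. Pmel ran the other way, at 0.555 and 0.946 CPM in the knockout-labelled libraries and 0.0545 and 0.325 CPM in wild type. Among 11 genes of lipid-laden macrophages, a state in which Gpnmb is typical, fold changes were negative for 8 and positive for 3 (median log2 fold change -0.52). The median was -0.71 without knockout replicate 1, -0.19 without knockout replicate 2 and -0.36 without wild type replicate 2. It was -0.30 with limma-voom and -0.34 with the replicate block. Fabp5, a lipid chaperone gene, had 54.2 and 93.7 CPM in the knockout-labelled libraries and 135 and 211 CPM in wild type (log2 fold change -1.23, SE 0.40, edgeR adjusted p = 0.547). Lgals3, the galectin 3 gene, had 81.7 and 75.8 CPM in the knockout-labelled libraries and 103 and 193 CPM in wild type. Itgax, the CD11c integrin gene, had a log2 fold change of -0.92 (SE 0.42), and Acp5, the tartrate-resistant acid phosphatase gene, one of -0.69 (SE 0.33). Spp1, the osteopontin gene and also a product of bile duct and tumour cells, ran the other way at 1030 and 1064 CPM in the knockout-labelled libraries and 376 and 923 CPM in wild type. No gene of the list passed by edgeR, 0 higher and 2 lower had an unadjusted p under 0.05 (3.95% and 4.35% of all tested genes), and DESeq2 called 0.

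**Figure D2:**
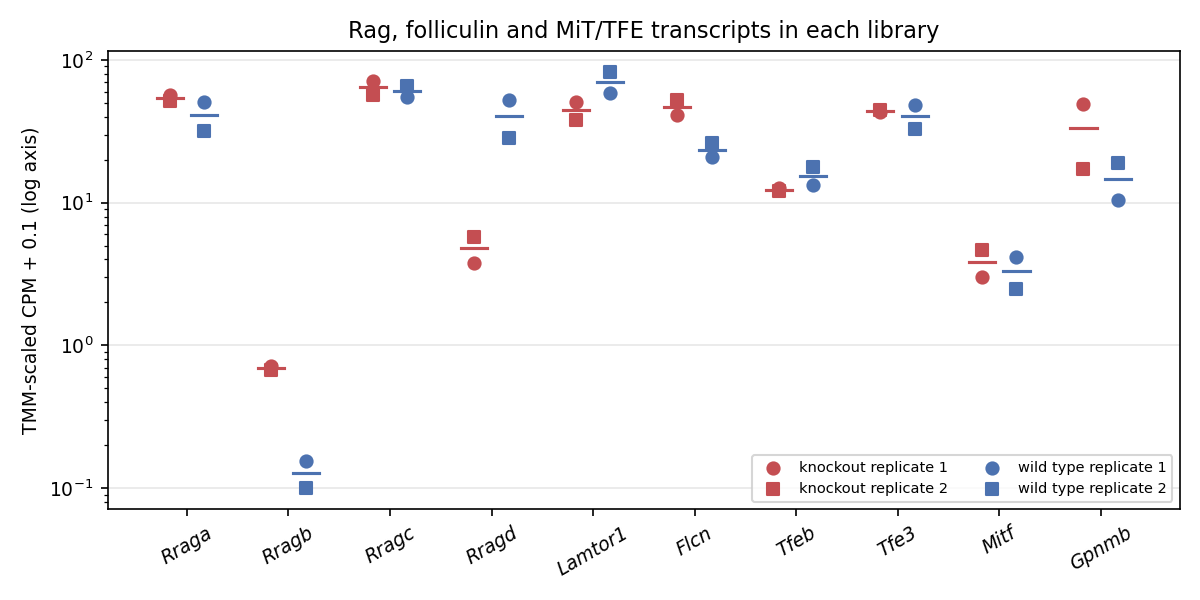
TMM-scaled CPM plus 0.1 on a log axis for the 10 genes, with knockout-labelled libraries in red and wild type in blue (circle replicate 1, square replicate 2, bar the mean of 2 libraries). Among the 9 tested genes, Rragd and Flcn are separated by more than their replicates differ, and the red circle of Gpnmb at 48.9 CPM stands alone. Rragb, which was not tested, is also separated but rests on 0 to 10 counts a library.

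Across the set, log2 fold changes were positive for 6 and negative for 3 of the 9 tested members (median 0.10), against 50.4% positive and 49.6% negative over all tested genes. Groups did not overlap for 2 members that were higher (Rraga and Flcn) and 3 that were lower (Rragd, Tfeb and Lamtor1) in the knockout-labelled libraries. Over all tested genes 21.9% were separated upward and 20.1% downward, and because the set was chosen on this contrast nothing is read from its counts. Among these 5, the nearest libraries of the groups stood more than 1.14-fold apart for Rragd and Flcn. By FPKM, Rragd was the fourth most abundant of the 10 genes in both wild type libraries and the eighth in both knockout-labelled ones. Rraga, Lamtor1 and Rragc held the first 3 places in all 4 libraries, Mitf the ninth and Rragb the last. The mean levels of Rraga and Lamtor1 differed by less than their spread in wild type, at 26.3 ± 12.1 and 20.8 ± 2.01 FPKM (SD, n = 2). Tfe3, Gpnmb and Tfeb, at 2.03 ± 0.838, 1.91 ± 0.514 and 1.66 ± 0.088 FPKM in wild type, did not differ beyond theirs.

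**Figure D3:**
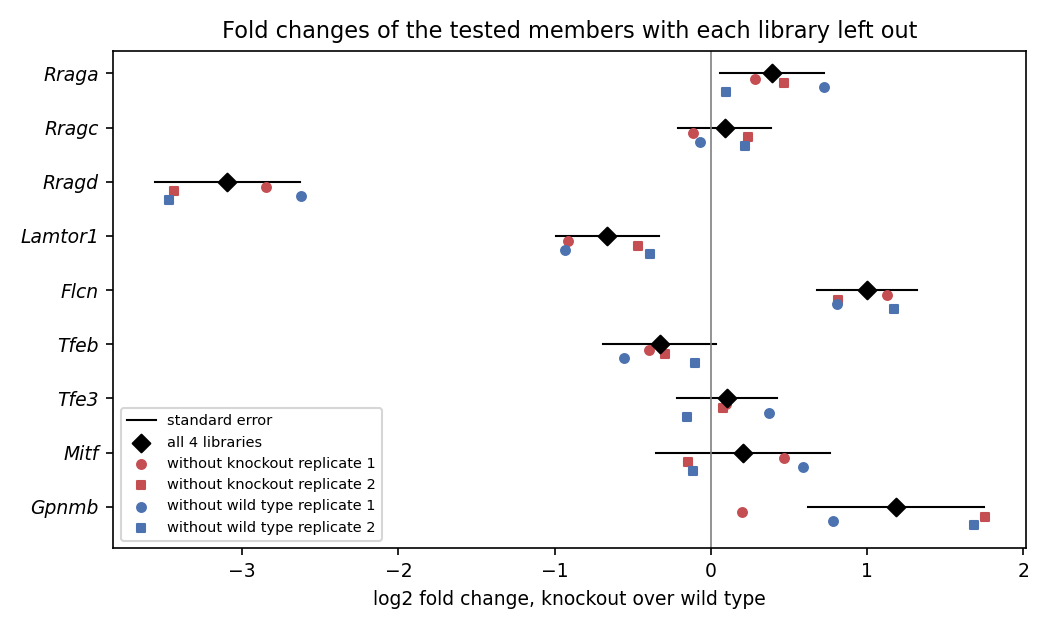
Log2 fold change, knockout-labelled over wild type, of the 9 tested genes (diamond: all 4 libraries, line: 1 standard error on each side, coloured points: 1 library left out). Rragd lies between -3.47 and -2.62 whichever library is left out, while Gpnmb drops to 0.20 without knockout replicate 1 and Rragc, Tfe3 and Mitf cross 0.

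The 5 genes with profiles nearest to that of Rragd are given next. By root mean square difference of centred log2 CPM over the 4 libraries, the nearest of 10507 genes with a mean of at least 5 CPM was Mab21l3, at 0.24. It had 62 and 80 counts in the knockout-labelled libraries and 621 and 361 in wild type. The next were St6galnac2, a sialyltransferase gene (0.49), Serpinb1a, an elastase inhibitor gene of leukocytes (0.51), Metrn, the gene of the secreted protein meteorin (0.54), and Mgst2, a microsomal glutathione transferase gene (0.55). These genes lie on chromosomes 3, 11, 13, 17 and 3, so none neighbours Rragd on chromosome 4. The measure rests on 4 libraries and mostly restates the difference between the groups.

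Genes beside Rragd, looked at after its values were seen, did not share its size of change. Of the 3 nearest tested genes on each side, Ankrd6 had 1.23 and 1.83 CPM in the knockout-labelled libraries and 6.86 and 2.01 CPM in wild type (log2 fold change -1.53, SE 0.72), with wild type replicate 1 the only high library. The other 5, Lyrm2, Gm11942, 4933421O10Rik, Ube2j1 and Pm20d2, had log2 fold changes between -0.72 and 0.17. Ube2j1, a ubiquitin-conjugating enzyme gene of the endoplasmic reticulum, had 66.7 and 59.7 CPM in the knockout-labelled libraries and 81.9 and 61.5 CPM in wild type.

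Genes of amino acid sensing and mTORC1 had fold changes of both signs. In the 17 genes of GATOR, KICSTOR and the amino acid sensors, which set the state of RagA and RagB, 10 were positive and 7 negative (median log2 fold change 0.02). Wdr24, a GATOR2 subunit gene, had 22.8 and 24.5 CPM in the knockout-labelled libraries and 32.6 and 44.5 CPM in wild type. Itfg2, of KICSTOR, had a log2 fold change of 0.66, and Sesn2, the leucine sensor gene sestrin 2, one of 0.61. Sec13 and Seh1l, GATOR2 subunits shared with other complexes, drew the most counts of the list and had log2 fold changes of -0.11 and 0.02. By edgeR 0 of the 17 passed, 0 had an unadjusted p under 0.05, and DESeq2 called 0.

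In the 12 genes of mTORC1, the TSC complex and RHEB, 5 were positive and 7 negative (median log2 fold change -0.06). Without wild type replicate 2 the median was 0.16 and 5 were negative. Tsc1, a brake on RHEB, had 34.2 and 38.7 CPM in the knockout-labelled libraries and 27.1 and 15.3 CPM in wild type. Its partner Tsc2 had 41.5 and 44.8 CPM in the knockout-labelled libraries and 60.3 and 51.9 CPM in wild type, so the subunit genes had fold changes of opposite sign, though neither passed the test. The mTORC1 substrate gene Rps6kb1 had a log2 fold change of 0.62 (SE 0.30), and Eif4ebp1 one of -0.43 (SE 0.44) with wild type replicate 2 highest at 184 CPM. Rheb, the GTPase that activates mTORC1, had 83.8 and 85.8 CPM in the knockout-labelled libraries and 93.5 and 79.9 CPM in wild type. By edgeR 0 of the 12 passed, 0 had an unadjusted p under 0.05, and DESeq2 called 0.

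Lysosomal genes of the CLEAR network mostly had negative fold changes, the glycosidase genes Neu1, Hexa and Gla among them. Of 26 tested, 20 were negative and 6 positive, with a median log2 fold change of -0.41 against 0.01 over all tested genes. By edgeR 0 passed, 4 lower and 0 higher had an unadjusted p under 0.05 (4.35% and 3.95% of all tested genes), and DESeq2 called 0. Neu1, the lysosomal sialidase gene, had 53.9 and 50.6 CPM in the knockout-labelled libraries and 81.3 and 115 CPM in wild type (log2 fold change -0.91, SE 0.31, edgeR adjusted p = 0.554). Hexa, a hexosaminidase gene, had 53.5 and 40.3 CPM in the knockout-labelled libraries and 71.2 and 111 CPM in wild type (log2 fold change -0.95, SE 0.35). Gla, the alpha-galactosidase gene, had 17.5 and 13.9 CPM in the knockout-labelled libraries and 26.3 and 32.7 CPM in wild type. In each of these 3 genes both knockout-labelled libraries lay below both wild type ones, as they did for 9 of the 26 genes, against 20.1% of all tested genes.

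The lysosomal genes that drew the most counts differed from each other. Psap, the precursor of the saposins that assist sphingolipid breakdown, had 763 and 370 CPM in the knockout-labelled libraries and 1232 and 1099 CPM in wild type. Lamp1, the main lysosomal membrane glycoprotein gene, had 600 and 373 CPM in the knockout-labelled libraries and 428 and 574 CPM in wild type, with both wild type values inside the knockout-labelled range. Single mice weighed on the list. Knockout-labelled replicate 2 was the lowest library for 16 of the 26 genes, and wild type replicate 2 the highest for 17. Without wild type replicate 2 the median was -0.10 and 14 of 26 genes were negative, and without knockout replicate 2 the median was -0.23. Markers of several other cell types were also lower in both knockout-labelled libraries than in both wild type ones. This held for 8 of 10 macrophage markers (sums above), 4 of 5 erythroid and 4 of 5 neutrophil markers, against 20.1% of all tested genes. It also held for 3 of 6 endothelial and 3 of 7 stellate cell and fibroblast markers. It held for 0 of the Kupffer cell, hepatocyte, cholangiocyte, T cell, B cell, mast cell and melanocyte markers. Of the mast cell markers 0 passed the filter on low counts. All 5 Kupffer cell markers had negative fold changes. Their sums were 8.76 and 18.9 CPM in the knockout-labelled libraries and 5.66 and 147 CPM in wild type, with wild type replicate 2 the only high library. Higher in both knockout-labelled libraries were 2 of 4 T cell markers, against 21.9% of all tested genes. The B cell marker Ms4a1 (3 and 4 knockout-labelled counts, 3 and 2 in wild type) was also higher in CPM. So was the melanocyte marker Pmel (9 and 15 knockout-labelled counts, 1 and 5 in wild type). Neither passed the filter on low counts. Erythroid markers summed to 198 and 139 CPM in the knockout-labelled libraries and 901 and 2046 CPM in wild type. Neutrophil markers summed to 4.57 and 3.03 CPM in the knockout-labelled libraries and 12.7 and 50.5 CPM in wild type, with Ly6g at 0 in every library. Endothelial markers summed to 96.0 and 77.1 CPM in the knockout-labelled libraries and 131 and 143 CPM in wild type. For stellate cells and fibroblasts the sums were 439 and 802 CPM in the knockout-labelled libraries and 943 and 865 CPM in wild type. The part of these cells in the lysosomal values was not tested.

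**Figure D4:**
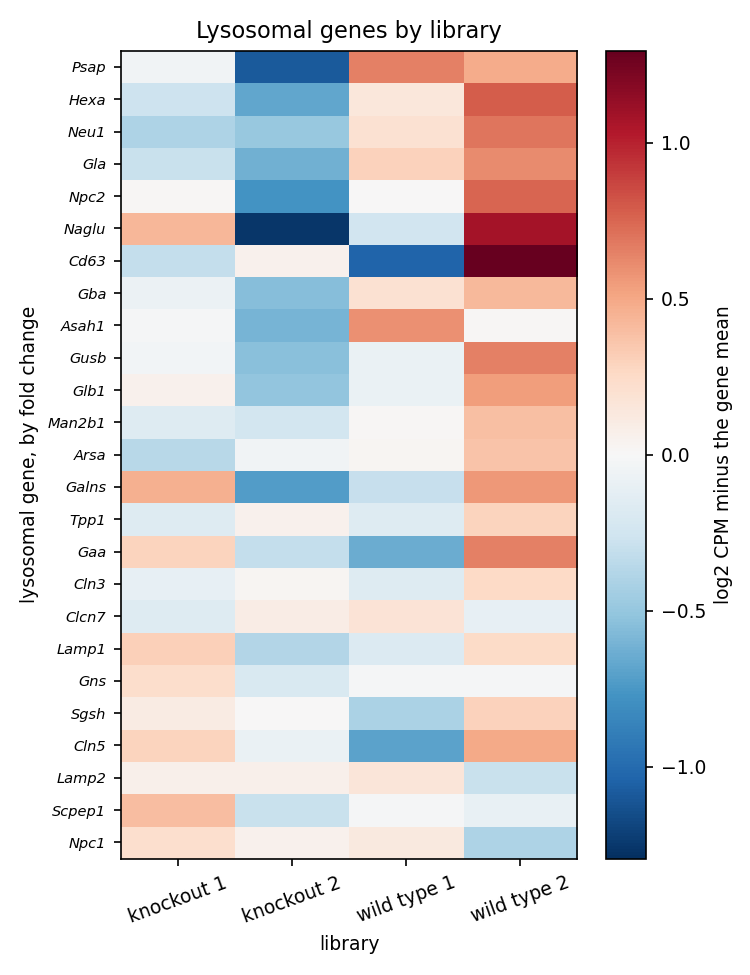
Log2 CPM of 25 of the 26 lysosomal genes in the 4 libraries, each gene minus its own mean (red above, blue below), ordered from the most negative fold change at the top. Of those drawn, knockout-labelled replicate 2 holds the lowest value for 15 genes and wild type replicate 2 the highest for 17.

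Autophagy genes of the CLEAR network had fold changes of both signs. Of 13 tested, 5 were positive and 8 negative (median log2 fold change -0.07), and the median was 0.18 without wild type replicate 2. Map1lc3b, the LC3B autophagosome protein gene, had 115 and 40.2 CPM in the knockout-labelled libraries and 41.2 and 44.3 CPM in wild type. Its single high library was knockout-labelled replicate 1, the one in which Gpnmb was high. Sqstm1, the autophagy receptor p62, had 264 and 215 CPM in the knockout-labelled libraries and 211 and 300 CPM in wild type. Gabarap and Gabarapl1 encode relatives of LC3, and their log2 fold changes were -0.54 (SE 0.46) for Gabarap and -0.31 (SE 0.35) for Gabarapl1, each with wild type replicate 2 highest. Uvrag, an autophagy regulator gene, had a log2 fold change of -0.27 (SE 0.30), and Rab7, the late endosome GTPase gene, one of 0.03 (SE 0.42). By edgeR 0 of the 13 passed, 0 had an unadjusted p under 0.05, and DESeq2 called 0.

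**Figure D5:**
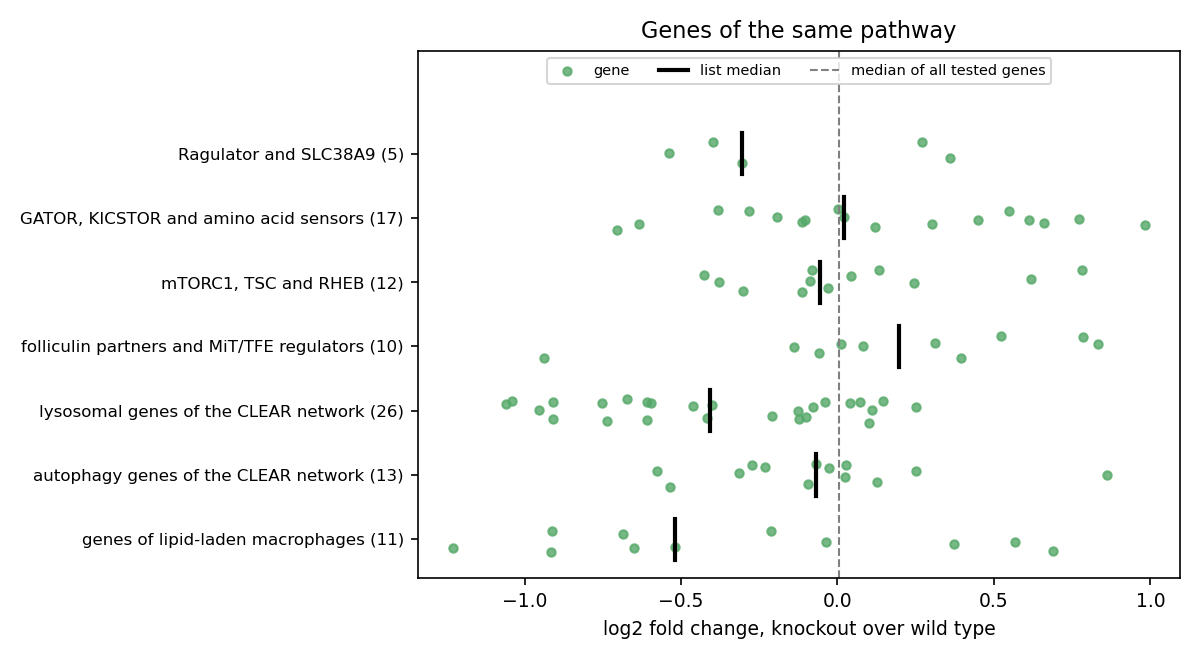
Log2 fold change, knockout-labelled over wild type, of each tested gene (point) in the 7 pathway lists, with the list median as a black bar and the median of all 16310 tested genes as a dashed line. List medians run from -0.52 for genes of lipid-laden macrophages and -0.41 for lysosomal genes to 0.20 for folliculin partners and regulators.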

How the data were processed

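The deposited table held raw counts and FPKM for 55487 Ensembl genes in 4 bulk tumour libraries, 1 per mouse. Per the submitters' processing notes, the tools were HISAT2, StringTie, SAMtools 1.3.1 and edgeR, listed without roles, and the build mm10, and the counting tool and its strand setting are not given in the sources used here. The deposited FPKM was the deposited count times 1 factor per gene and 1 per library, within 1%, for 100% of genes with at least 10 counts in every library. FPKM was used only to compare levels between genes and to add up Rragc and Rragd. Symbols came from GENCODE M21 (55141 identifiers matched), whose spans equalled the deposited spans of the members.

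Counts were filtered with filterByExpr (16310 genes left), scaled by TMM and fitted with edgeR 4.0.16 (R 4.3.3, quasi-likelihood F test, two-sided, Benjamini-Hochberg over all tested genes, threshold 0.05). Log2 CPM used a prior count of 2. The fit was tested on simulated data. DESeq2 1.42.0, limma-voom 3.58.1, other scalings and filters, a replicate block and leaving out each library were the alternatives. In fits without a library the lone sample is assumed to vary like the other group. A count of 3 in a library is 0.163 to 0.195 CPM after TMM scaling, and such limits cover counting error only. An exact test of 2 against 2 libraries cannot reach 0.05, so none was made.

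The members and lists were chosen with earlier results of these data known. Members are all named. Of each list up to 4 genes with the smallest p and the 2 of highest CPM were named, and the 5 genes most like Rragd. A few genes that this rule names are not reported here, though list counts include them. Rragd's neighbours were added after its values were seen. Promoters are RefSeq windows. Antisense and similar transcripts were found with GENCODE M21 (exon overlap, or at least 90% identity over 300 bases).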

Additional observations from a re-analysis of the deposited data

How the results depend on the processing

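Under the 7 alternatives that kept all 4 libraries, the log2 fold change of Rragd stayed between -3.17 and -3.05, and those of the other 8 tested members kept their sign and moved by less than the spread between replicates (Mitf, removed at a mean of 5 CPM, had 6). With single libraries left out Rragd ran from -3.47 to -2.62, Flcn from 0.80 to 1.17, Lamtor1 from -0.93 to -0.39, Tfeb from -0.56 to -0.10, Rraga from 0.10 to 0.72 and Gpnmb from 0.20 to 1.75. Rragc (-0.11 to 0.24), Tfe3 (-0.15 to 0.37) and Mitf (-0.15 to 0.59) changed sign. Scaling by library totals left 1 member, Flcn, separated upward instead of 2. Over all genes edgeR called 0 higher and 0 lower, with 645 and 709 at an unadjusted p under 0.05. DESeq2 called 65 higher and 85 lower, limma-voom 0 and 1, library totals 0 and 1, and the replicate block 2 and 2. Leaving out libraries gave 0 to 209 higher and 0 to 200 lower, the most without wild type replicate 1. The median of genes of lipid-laden macrophages was -0.30 with limma-voom, -0.34 with the replicate block, and -0.71 to -0.19 with libraries left out. Under the same omissions the median of lysosomal genes ran from -0.62 to -0.10, of autophagy genes from -0.24 to 0.18, of Ragulator and SLC38A9 from -0.40 to -0.075, and of mTORC1, TSC and RHEB from -0.0441 to 0.16. The causes were not tested. The replicate numbers are not said to pair the mice, and same-numbered deviations correlated at 0.125 over genes in 1 such comparison. The interval for Rragb covers counting error only and is no test between the groups, and variation between mice cannot be judged from 2 libraries a group at this depth.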
